A study of Arabidopsis thaliana with 12 samples.

Results

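Genes of plastid ribosomal proteins and 1 gene of the L18p/L5e family were compared between the ppi1 mutant and the wild type (WT) of Arabidopsis thaliana. The comparison used 6 array features that the platform annotation of 2016 assigns to exactly 1 gene each. Of these, 5 belong to nuclear-encoded proteins of the plastid ribosome: AT4G01310 (L5), AT3G54210 (L17) and AT1G29070 (L34) of the large subunit, and AT1G64510 (S6) and AT3G13120 (S10) of the small subunit. The 6th, AT1G08845, belongs to the L18p/L5e family. The 6 features are part of 3439 in the table, of which 692 have 1 gene. The tables used here give these loci by identifier alone, so the protein names and roles come from general knowledge of the loci. No annotation used here places the product of AT1G08845 in an organelle, so it is called by its family below.

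The members were named with earlier results of these arrays known. The 5 plastid genes were chosen by their annotation, as the listed loci of this class with a feature that gave signal. AT1G08845 was selected on its difference between ppi1 and WT on these same arrays, where it had been among the largest increases, so that difference is given as a description without a test.

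The arrays held total RNA of 6 ppi1 samples and 6 WT samples, both labelled as ecotype Columbia 0. ppi1 imports chloroplast precursor proteins poorly and is known as a mutant of TOC33, a receptor in the outer envelope. The labels state neither the tissue nor the plant age. They also leave unsaid whether the replicates are separate plants, and the p-values then reflect only how far these samples scatter, which may be technical. If the RNA came from whole tissue, fewer cells of a type and less RNA per cell cannot be told apart.

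The plastid ribosome is of the bacterial type and translates the transcripts of the plastid genome, among them those of photosystem core subunits. Its ribosomal RNAs and part of its proteins are encoded in the plastid. The other proteins, these 5 among them, are encoded in the nucleus, made in the cytosol as precursors with a transit peptide and imported through the envelope. The comparison asks whether the transcripts of such imported proteins differ in level when import is impaired.

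Few genes of plastid translation could be followed. Of 41 listed nuclear loci of plastid ribosomal proteins, 6 had a feature of their own, and 35 had none. The one beyond the members was AT5G65220, the large-subunit protein L29, whose feature was listed at 0 on all 12 arrays and was not tested. Of 9 listed plastid translation factors, 0 had a feature with 1 gene and 2 were found only on features shared with other genes, which are not named. The 5 listed mitochondrial and 18 listed cytosolic ribosomal protein loci had no feature.

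Deposited array medians ran from 0.563 to 0.645 in ppi1 and from 0.475 to 0.520 in WT, so the arrays were quantile-normalised before comparison. Every ppi1 median lay above every WT median. A general difference in RNA and a difference in array scale therefore cannot be told apart, and the normalisation removes both. Levels below are this normalised intensity in relative units. Values under 0.118, which 5% of the positive values lie below, were raised to that floor before log2 was taken. Within each group, replicates 1 and 2, 3 and 4, and 5 and 6 lay close together. The median absolute log2 difference over all features was 0.0861 to 0.122 within these neighbouring sets, against 0.158 to 0.314 for other pairs of one group. The 6 arrays of a group may therefore hold fewer than 6 independent samples.

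None of the 6 members was listed at 0 on any array, and all 6 were tested. They differed in how near the floor they lay. L5, L17 and AT1G08845 had no array below 2 times the floor (0.236), while S6 had all 12 arrays, L34 10 and S10 7 below it. Arrays set to the floor numbered 6 for S6, 4 for L34 and 1 for S10.

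**Figure D1:**
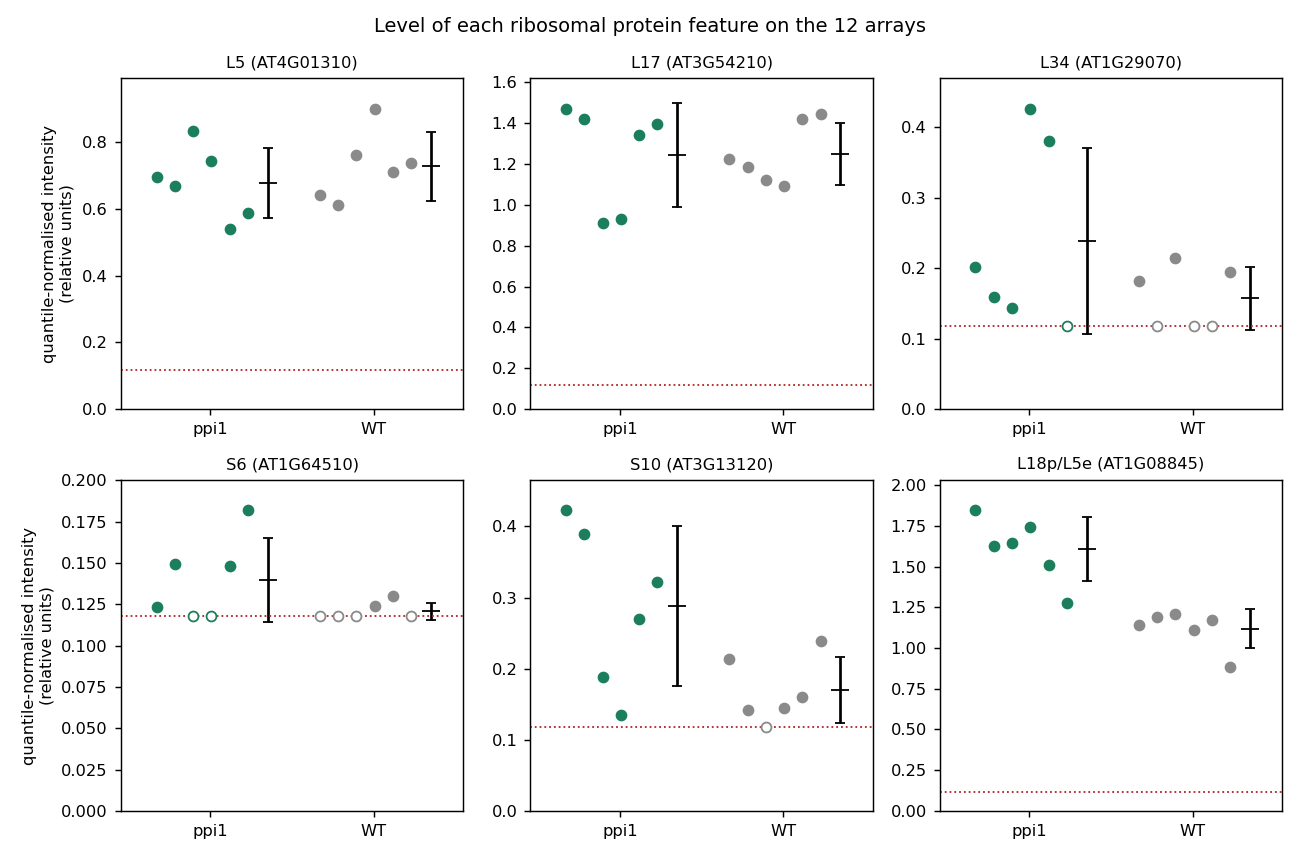
Quantile-normalised intensity (relative units, y axis from 0, one scale per panel) of the 6 features on the 6 ppi1 arrays (green, left) and the 6 WT arrays (grey, right), in the order of replicate numbers 1 to 6 within each group. Open circles are arrays set to the floor of 0.118 (dotted line), black bars the mean ± SD (n = 6); AT1G08845 is the panel without overlap between the groups, and L34, S6 and S10 lie near the floor.

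Among the large-subunit genes, L5 and L17 were well measured and differed little in mean level between the groups. L5, whose bacterial counterpart binds the small ribosomal RNA of the large subunit, had its lowest, median and highest levels at 0.540, 0.681 and 0.831 in ppi1, against 0.611, 0.723 and 0.900 in WT. The groups overlapped, although 2 ppi1 arrays, replicates 5 and 6, lay below every WT array. The log2 change was -0.10 (SE 0.118), with adjusted p = 0.687 in limma over all features. It was -0.04 without WT replicate 4 or ppi1 replicate 5, -0.07 without ppi1 replicate 6, -0.17 without ppi1 replicate 3 and -0.03 with array weights. As a ratio of ppi1 over WT the change over all 12 arrays is 0.930, with a 95% interval of 0.776 to 1.11.

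L17, which in bacteria sits near the exit of the nascent peptide tunnel, averaged 1.24 ± 0.254 in ppi1 and 1.25 ± 0.151 in WT (SD, n = 6 each). Its lowest, median and highest levels were 0.910, 1.37 and 1.47 in ppi1, against 1.09, 1.20 and 1.45 in WT. The log2 change was -0.02 (SE 0.142, limma adjusted p = 0.985), and the ratio was 0.985 with a 95% interval of 0.793 to 1.22. The intervals of both L5 and L17 span a decrease and an increase. They treat the 6 arrays of a group as independent, so they are too narrow if neighbouring replicates are not.

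The near-zero mean of L17 was made of sets of arrays that lay apart. ppi1 replicates 3 and 4 averaged 0.921, below every WT array, while ppi1 replicates 1 and 2 averaged 1.44 and ppi1 replicates 5 and 6 averaged 1.37. WT replicates 3 and 4 were also the lowest WT set, at 1.11, against 1.20 and 1.43 for WT replicates 1 and 2 and WT replicates 5 and 6. The log2 difference of ppi1 minus WT was thus 0.26 in the first set, -0.26 in the second and -0.07 in the third. Within a set, the levels of L17 differed by only 0.0479 on the log2 scale on average in ppi1 and 0.0379 in WT.

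L5 also differed in direction between sets, in another order. Its log2 difference was 0.12 for replicates 1 and 2, -0.07 for replicates 3 and 4, and -0.36 for replicates 5 and 6. ppi1 replicates 3 and 4 held its highest ppi1 levels, where L17 had its lowest.

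L34, a small protein of the large subunit, had the widest spread of the 6 members over the ppi1 arrays, with an SD of 0.766 on the log2 scale. Its lowest, median and highest levels were 0.118, 0.181 and 0.426 in ppi1, against 0.118, 0.150 and 0.215 in WT. The 2 highest values, 0.426 in ppi1 replicate 4 and 0.381 in ppi1 replicate 5, stood above every WT array, while the other 4 ppi1 arrays lay within the WT range. Their neighbours in the same sets, ppi1 replicates 3 and 6, were at 0.144 and at the floor.

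The 2 arrays of a set, which lay close over all features, therefore did not do so for L34. The mean absolute log2 difference within sets was 1.20 in ppi1 and 0.740 in WT. The log2 change of L34 was 0.47 (SE 0.340, limma adjusted p = 0.481). It was 0.27 without ppi1 replicate 4 and 0.30 without ppi1 replicate 5, and did not pass in either fit (limma adjusted p = 0.702 and 0.668). With a floor at the 1st percentile it was 0.93 (limma adjusted p = 0.313). The lowest deposited intensity of L34 was 0.00857, in WT replicate 4.

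Among the small-subunit genes, S6 was the member nearest the floor. S6, which in bacteria pairs with another protein on the platform of the small subunit, had its lowest, median and highest levels at 0.118, 0.136 and 0.182 in ppi1, against 0.118, 0.118 and 0.130 in WT. The floor was reached on 2 ppi1 arrays and 4 WT arrays, and levels tied there narrow the spread behind the SE. The log2 change was 0.19 (SE 0.102, limma adjusted p = 0.305), and it was 0.30 with a floor at the 1st percentile (limma adjusted p = 0.394), 0.11 without ppi1 replicate 6 (0.412) and 0.12 with array weights (0.424). With a floor at the 10th percentile all 12 arrays of S6 lay at the floor and it had no change to give.

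S10 is a protein of the head of the small subunit and in bacteria also takes part in transcription antitermination. It had the largest log2 change of the 6 at this floor. With the floor at the 1st percentile that of L34 was larger (0.93 against 0.77). With the floor at the 10th percentile that of AT1G08845 was larger (0.522 against 0.507), and L34 was at 0.35. The lowest, median and highest levels of S10 were 0.135, 0.296 and 0.423 in ppi1, against 0.118, 0.153 and 0.239 in WT. Of the ppi1 arrays, 4 (replicates 1, 2, 5 and 6) lay above every WT array, and ppi1 replicates 3 and 4 lay within the WT range. S10 averaged 0.288 ± 0.112 in ppi1 and 0.170 ± 0.0466 in WT (SD, n = 6 each), a log2 change of 0.70 (SE 0.291). It did not pass over all features (limma adjusted p = 0.187).

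The size of the S10 difference also varied by set. ppi1 minus WT was 1.22 on the log2 scale for replicates 1 and 2, 0.29 for replicates 3 and 4, and 0.59 for replicates 5 and 6. Within sets, S10 levels differed on average by 0.284 in ppi1 and 0.489 in WT on that scale, so these values are imprecise. ppi1 was higher at 5 of the 6 replicate numbers, the exception being number 4 (-0.10). The one setting under which S10 passed was the deposited scale, with no scaling between arrays (log2 change 1.01, limma adjusted p = 0.0126). On that scale 909 of 3365 features (27%) passed and the median change of all features was 0.21, and over the dimmest 20% of features, which hold S10, L34 and S6, it was 0.20.

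**Figure D2:**
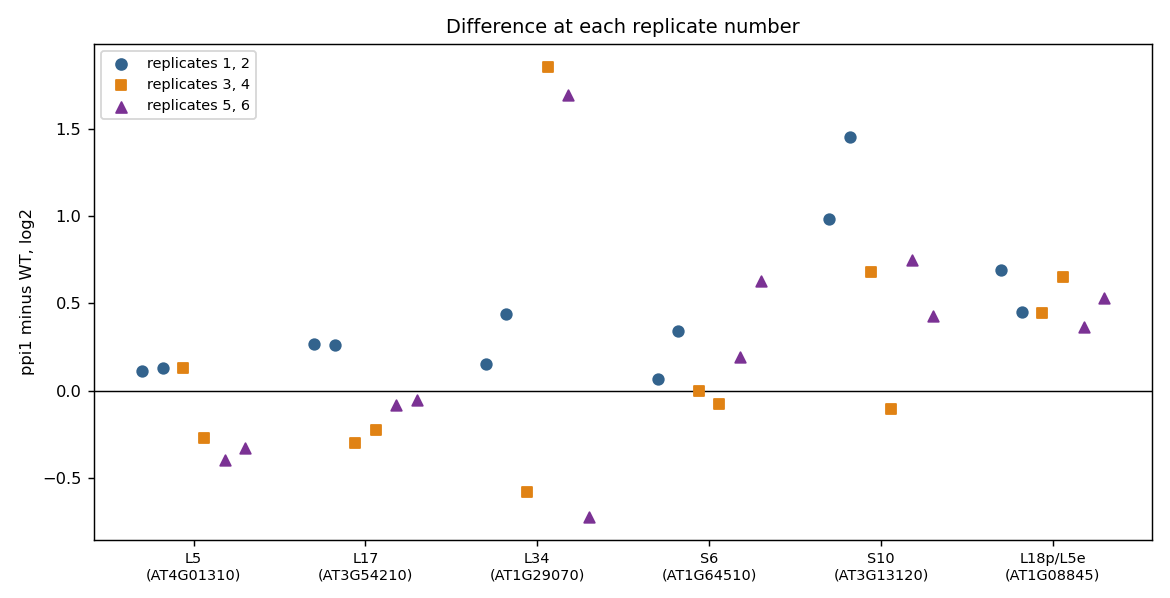
Difference of ppi1 minus WT on the log2 scale (y axis) at each replicate number 1 to 6 (left to right within a gene) for the 6 features, with neighbouring replicates marked by colour and shape. AT1G08845 lies above 0 at all 6 numbers, L5 and L17 lie on both sides of 0, and L34 spans -0.73 to 1.86.

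Of the 5 plastid ribosomal protein genes, 0 passed in limma at an adjusted p under 0.05, where 284 of 3365 features (8.44%) passed, and S10 was the 1 with an unadjusted p under 0.05 (0.0353), where 741 features (22%) had one. With the replicate number as a block 517 of 3365 (15.4%) passed, and again 0 of the 5. The exact permutation test over arrays, adjusted over all features, called 205 of 3365 (6.09%) and 0 of the 5. That test treats all arrays as exchangeable, so its p-values are not exact if neighbouring replicates are not independent. The groups overlapped for all 5, while they did not overlap for 6.09% of all features. Those are the 205 that the permutation test called, so the overlap adds no separate result. The log2 change was positive for S10, L34 and S6 and negative for L5 and L17. The median was 0.19, beside 0.0050 over all features tested. Each of the 3 positive values belongs to a feature with arrays at the floor, and each of the negative ones to a feature without. Among all 266 features with 1 to 6 arrays at the floor, 141 had a positive and 125 a negative change, with a median of 0.018.

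**Figure D3:**
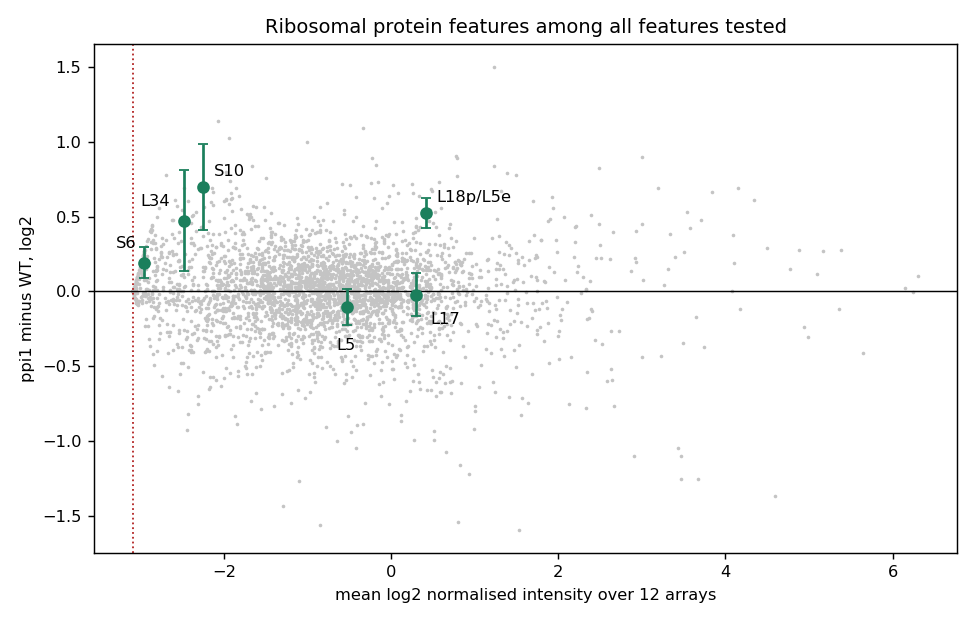
Log2 change of ppi1 minus WT (y axis) against mean log2 normalised intensity over the 12 arrays (x axis) for all 3365 features tested (grey) and the 6 ribosomal protein features (green, bars ± SE), with the floor as a dotted line. S6, L34 and S10 lie at the dim end with positive values, and L5 and L17 lie near 0; brightness serves here to show the distance from the floor, not to compare amounts of transcript.

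Placed among the log2 changes of all features, S10 lay at percentile 99.2, L34 at 96.7 and S6 at 81.0. L17 lay at percentile 42.1 and L5 at 27.4. The high place of S10 and L34 went with wide errors. Their SE were 0.291 and 0.340. The median SE was 0.227 over the features with 1 to 6 arrays at the floor and 0.121 over all features. That of S6 was 0.102, narrowed by its 6 arrays tied at the floor.

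AT1G08845, of the family of the bacterial ribosomal protein L18, which binds the small ribosomal RNA of the large subunit, was the 1 member whose groups did not overlap. Its lowest, median and highest levels were 1.28, 1.64 and 1.85 in ppi1, against 0.885, 1.16 and 1.21 in WT. It averaged 1.61 ± 0.199 in ppi1 and 1.12 ± 0.120 in WT (SD, n = 6 each), a log2 change of 0.52 (SE 0.0994) and a ratio of 1.44. ppi1 lay above every WT array in 72 of 3365 features (2.14%), but since AT1G08845 was chosen for this difference, nothing is read from that share.

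AT1G08845 was chosen on these same values, so neither the sets nor the scalings below give its difference separate support. The difference was similar in the 3 sets. It was 0.57 on the log2 scale for replicates 1 and 2, 0.55 for replicates 3 and 4, and 0.45 for replicates 5 and 6, where both groups had their lowest levels. By replicate number it ran from 0.36 to 0.69. Replicate 6 held the lowest level of either group, 1.28 in ppi1 and 0.885 in WT. Over the other scalings the log2 change was 0.35 with median scaling, 0.55 with cyclic loess and 0.63 on the deposited scale. The median of all features was -0.025, 0.0058 and 0.21 in the same order.

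**Figure D4:**
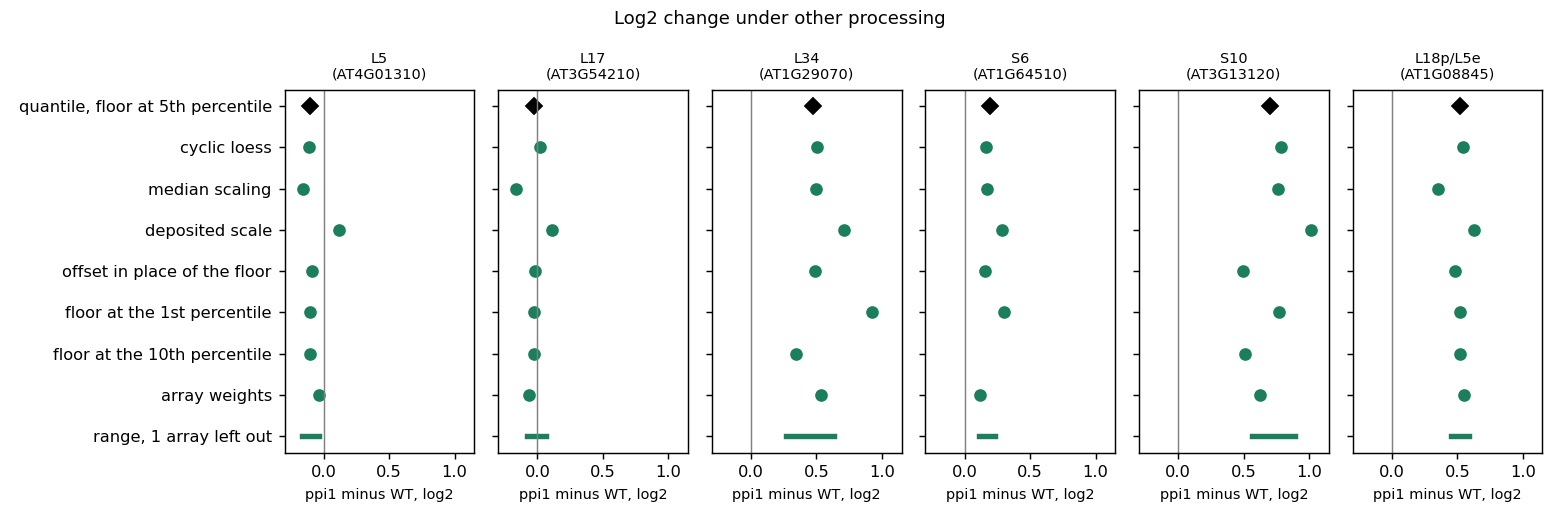
Log2 change of ppi1 minus WT (x axis) of the 6 features under quantile normalisation with the floor at the 5th percentile (black diamond), under other scalings, floors and array weights (green circles), and its range when 1 of the 12 arrays was left out (green bar). L5 and L17 change sign with the scaling, the other 4 stay above 0, and S6 has no value with the floor at the 10th percentile.

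The sign of L5 and L17 depended on the scaling. L5 was at -0.16 with median scaling and at 0.12 on the deposited scale, and L17 at -0.16 and 0.11. The median of all features was -0.025 with median scaling and 0.21 on the deposited scale, so both genes lay below it on either. L17 was also positive with cyclic loess (0.017) and without ppi1 replicate 3 (0.064), ppi1 replicate 4 (0.056), WT replicate 5 (0.016) or WT replicate 6 (0.021).

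From array to array the members deviated in differing directions. The correlation of log2 deviations from the group mean ran from -0.61 to 0.87 over the 15 pairs of the 6 members, and 5 of the 15 were positive. The highest was that of L17 with S10 (0.87), both of which were low in ppi1 replicates 3 and 4. That of L17 with L5 was -0.56. These values are descriptions over 12 arrays that share neighbouring sets, and arrays at the floor narrow the deviations of S6, L34 and S10.

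For the 3 members without an array at the floor, the named features with the most similar deviations were sought among 561 others. For L5 they were CBL (AT3G57050, correlation 0.86), AT1G67930 (0.84) and AT2G14660 (0.83). For L17 they were AT2G40980 (0.97), AT4G37420 (0.80) and AT5G51670 (0.79). For AT1G08845 they were AT4G31930 (0.90), AT5G01860 (0.85) and ATSPS4F (AT4G10120, 0.83). Chosen as the highest of many, over arrays that share neighbouring sets, these correlations are large by selection. In the comparison of the groups, 0 of these 9 features passed in limma, where 8.44% of all features did. An unadjusted p under 0.05 was found for 3 of the 9, where 22% of all features had one. The log2 changes of the 9, in the order named, were 0.17, 0.04 and 0.07 beside -0.10 for L5. Beside -0.02 for L17 they were -0.44, 0.29 and -0.06, and beside 0.52 for AT1G08845 they were -0.24, -0.45 and 0.42.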

How the data were processed

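The authors deposited 1 linear intensity per feature and array. No label or header tells how background was subtracted or arrays scaled, and none names a genome build, so no coordinates are printed. The number of arrays limits the precision. Groups and replicate numbers come from the sample titles. Of the 3439 features, 74 were at 0 on every array and were left out. The other 3365 were quantile-normalised, floored, put on the log2 scale and fitted in limma 3.58.1 under R 4.3.3. The fit used lmFit and eBayes with no covariate, two-sided, Benjamini-Hochberg adjusted over all features at a threshold of 0.05. It was also tried on simulated data. Those arrays were drawn independently, without the likeness of neighbouring replicates, so they do not show how the fit behaves under it. Same-numbered ppi1 and WT arrays deviated together (correlations 0.379 to 0.590), and were treated as pairs in the blocked fit; this pairing comes from the data, not the labels. Symbols follow the TAIR10.1 gene table, matched on gene identifier; it lacked 2 of 692. Members and lists were chosen with earlier results of these arrays known. Named are the 6 members, other listed loci with a feature of their own, and the 3 features most like each member without an array at the floor. The limit of 2 times the floor was set after the values were seen. Alternatives were other scalings, floors, filters, variance models, a replicate block, an exact permutation test over 924 splits, neighbouring replicates averaged or as a random block, and leaving out each array.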

Additional observations from a re-analysis of the deposited data

Results flagged for a closer look

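For AT1G08845 the level in WT replicate 6, 0.885, stood apart from the remaining WT levels of 1.11 to 1.21 by Dixon's criterion. This was the 1 case among 12 groups of 6 levels examined. Chance flags about 1 group in 20, so 1 flag among 12 groups is not read as an excess. For S6 in both groups and L34 in WT, levels tied at the floor could not be flagged at the low end. Leaving WT replicate 6 out changed the log2 change of AT1G08845 to 0.45, against 0.52 with it.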

How the results depend on the processing

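Over all features, 284 passed (106 higher and 178 lower in ppi1). The deposited scale gave 909 (805 higher, 104 lower), the replicate block 517 (250 and 267), neighbouring replicates averaged 4 (0 and 4, with 398 at an unadjusted p under 0.05) and as a random block 99 (28 and 71). Median scaling gave 80 higher and 336 lower, and leaving out each array 223 to 276. None of the 5 plastid ribosomal genes passed under any setting except S10 on the deposited scale. The replicate block changed no call among the 5 (S10 at adjusted p = 0.0663), and S10 was at 0.0559 without ppi1 replicate 4. The median of the 5, 0.19, lay between 0.107 (without ppi1 replicate 6) and 0.232 in the fits without 1 array. It was 0.30 with the floor at the 1st percentile and 0.12 with array weights. On the deposited scale it was 0.29, beside 0.21 over all features. L5 (0.12) and L17 (0.11) turned positive on the deposited scale, where both lay below the median of all features (0.21). L17 was also positive with cyclic loess (0.017) and in 4 of the 12 fits without 1 array, which ranged from -0.076 to 0.064. The cause of these sign changes was not tested. With a floor at the 10th percentile S6 and the median of the 5 could not be given. For S6, L34 and S10 the nearness of the floor limits the size of any difference that could be measured.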
